A study of Rattus norvegicus with 9 samples.

Results

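Interferon-stimulated antiviral genes were examined in rat hearts after experimental myocardial infarction. The genes were chosen by symbol: the Ifi, Ifit, Isg, Oas, Mx and Irf families, the antiviral Parp genes, Stat2, the RIG-I-like receptors, Rsad2, Zbp1, Usp18 and related genes, together with any listed gene of the alpha and gamma interferons or their receptors. The symbol rule itself uses no measured value. It found 68 genes among the 5760 genes that the 2 deposited tables list, 63 in the table of the Cal and Model groups and 16 in the table of the Cal and Con headings, with 11 genes in both. Matching by symbol also took in Irf2bp2 and Isg20l2, which are related to Irf2 and Isg20 in name and are described apart.

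Interferons are secreted proteins by which cells warn their neighbours of foreign or misplaced nucleic acid. Type I interferons act through the receptor chains Ifnar1 and Ifnar2 and the Janus kinases on Stat2, which acts with Irf9 in a complex that binds the interferon-stimulated response element (ISRE), while interferon gamma acts through Ifngr1 and Ifngr2 on genes that carry the gamma-activated sequence (GAS). The induced genes encode sensors of RNA and DNA, proteins that block viral entry, replication and translation, and the transcription factors of the pathway itself, and in the infarcted heart macrophages and other cells are known to switch such genes on.

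Hearts of 9 Sprague Dawley rats were sequenced, 3 per group. The sham group, labelled Control, was operated on without ligation, the Model group had the left anterior descending coronary artery ligated and received water, and the Cal group had the same ligation and received the isoflavone calycosin by mouth at 80 mg/kg per day. Treatment lasted 28 days in these groups. Each library was made from polyadenylated RNA of one heart, a mixture of muscle, vessel, connective tissue and immune cells, so a difference in the number of cells of a type and a difference in RNA per cell cannot be told apart. The tables hold normalized counts, which are reads per gene divided by one size factor per library and are not corrected for gene length. A gene is listed only where the test that came with the tables gave it an adjusted p under 0.05. Reads on the listed genes ranged from 2860826 to 4659882 per library and table, and the full depth is unknown.

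The column headings conflict, and this bears on every direction given here. The first table gives group means beside the single libraries, and its mean under the name Cal is that of the libraries headed Model, while its mean under the name Model is that of the libraries headed Cal. The second table has libraries headed Cal and Con and none headed Model, yet the mean of its Cal libraries stands under the name Model. Libraries keep the names over their own columns here. If the names over the means are the right ones, Cal and Model change places throughout. The libraries headed Cal are the same in both tables, so the 2 comparisons share them. The tables carry mouse Ensembl identifiers although the animals were rats. Of the 68 symbols, 17 were not found as gene symbols in the rat RefSeq annotation (GRCr8), among them all 10 Ifi200 genes, and 12 of these are no rat synonym either. Reads on closely related copies, such as the Ifi200, Oas1, Oasl, Ifit1, Ifit3 and Ifitm genes, could be divided among them, so the level of a single copy is uncertain.

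Promoters were read from RefSeq for the rat genes with these symbols, of which 37 had an entry, with 38 promoters in all. They were searched in the 250 bases before the gene start on both strands for the ISRE core, which is TTTC, any 2 bases and TTTC again (GAAA, any 2 bases and GAAA on the other strand), and for the GAS core TTCNNNGAA, whose letters read alike on both strands. The ISRE core was present in 16 of 38 promoters (42.1%), against 3.41% of all 33469 rat promoters of the same length. The GAS core was present in 9 of 38 (23.7%), against 7.67% of all. Genes without an entry were not searched, and only 7 of the 16 genes of the Cal and Con table had one. The first 2 stretches shown belong to Isg20 and Oas1b, the searched genes of both tables in which an ISRE core was found. The third belongs to Rsad2, which had the largest difference between the Cal and Model libraries among the other genes found with this core. The last belongs to Irf1, which had the largest difference between the Cal and Con libraries. Capitals mark the ISRE core in the first 3 and the GAS core in Irf1.
Isg20: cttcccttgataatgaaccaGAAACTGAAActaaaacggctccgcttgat
Oas1b: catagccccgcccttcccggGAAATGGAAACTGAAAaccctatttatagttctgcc
Rsad2: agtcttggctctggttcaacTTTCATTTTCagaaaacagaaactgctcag
Irf1: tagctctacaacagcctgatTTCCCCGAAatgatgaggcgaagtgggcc
The Isg20 stretch lies at chr1:142239947-142239996 on the plus strand, that of Oas1b at chr12:41395876-41395931 on the minus strand, that of Rsad2 at chr6:48788238-48788287 on the minus strand and that of Irf1 at chr10:38417773-38417821 on the plus strand, all in GRCr8. In Oas1b, 2 overlapping ISRE cores span -59 to -44 relative to the gene start. The cores of Isg20, Rsad2 and Irf1 lie at -92 to -83, -147 to -138 and -142 to -134. ISRE cores were also found before Irf7, Ifih1, Ifit3, Ifi44, Ifitm2, Ifitm3, Oas1a, Oas3, Oasl2, Parp12, Parp14, Eif2ak2 and Xaf1, and the GAS core before Irf8, Irf9, Ifi47 and Ifnar2 and, beside the ISRE core, before Ifitm3, Parp14, Oas1a and Oas1b. A match of letters is a description and no measure of binding.

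The first comparison set the libraries headed Cal against those headed Model, both groups of ligated hearts. Of the 63 interferon-stimulated genes in this table, 59 were called higher in the libraries headed Model, 2 were called higher in those headed Cal, and 2 did not pass. A call needed a limma adjusted p under 0.05 over all listed genes and a log2 fold change beyond 1. By this rule 60.1% of all 4288 listed genes were called, 31.6% as higher in the libraries headed Model. The authors' test had selected the genes on the same libraries, and 4272 of the 4288 had a limma adjusted p under 0.05. A call thus rests mainly on the fold limit, and the adjusted p-values are no independent evidence of a difference. The median log2 fold change of the libraries headed Model over those headed Cal was 2.46 for these genes and 0.52 for all listed genes. Groups did not overlap in 62 of the 63 genes, but 98.2% of all listed genes did not overlap, as the authors' own test had selected them. Summed over the 63 genes, the normalized counts were 150546, 374216 and 180880 in Model 1 to 3, or 3.98%, 7.87% and 4.72% of the counts on listed genes, and 34685, 23450 and 69205 in Cal 1 to 3, or 1.30%, 0.873% and 2.42%. The lowest Model library was thus above the highest Cal library. With median-ratio scaling over the listed genes, the median of all genes fell from 0.52 to 0.23 and that of the interferon-stimulated genes from 2.46 to 2.16, and of all called genes 1047 were then higher in the libraries headed Model and 1646 in those headed Cal, against 1356 and 1219 with the authors' size factors.

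**Figure D1:**
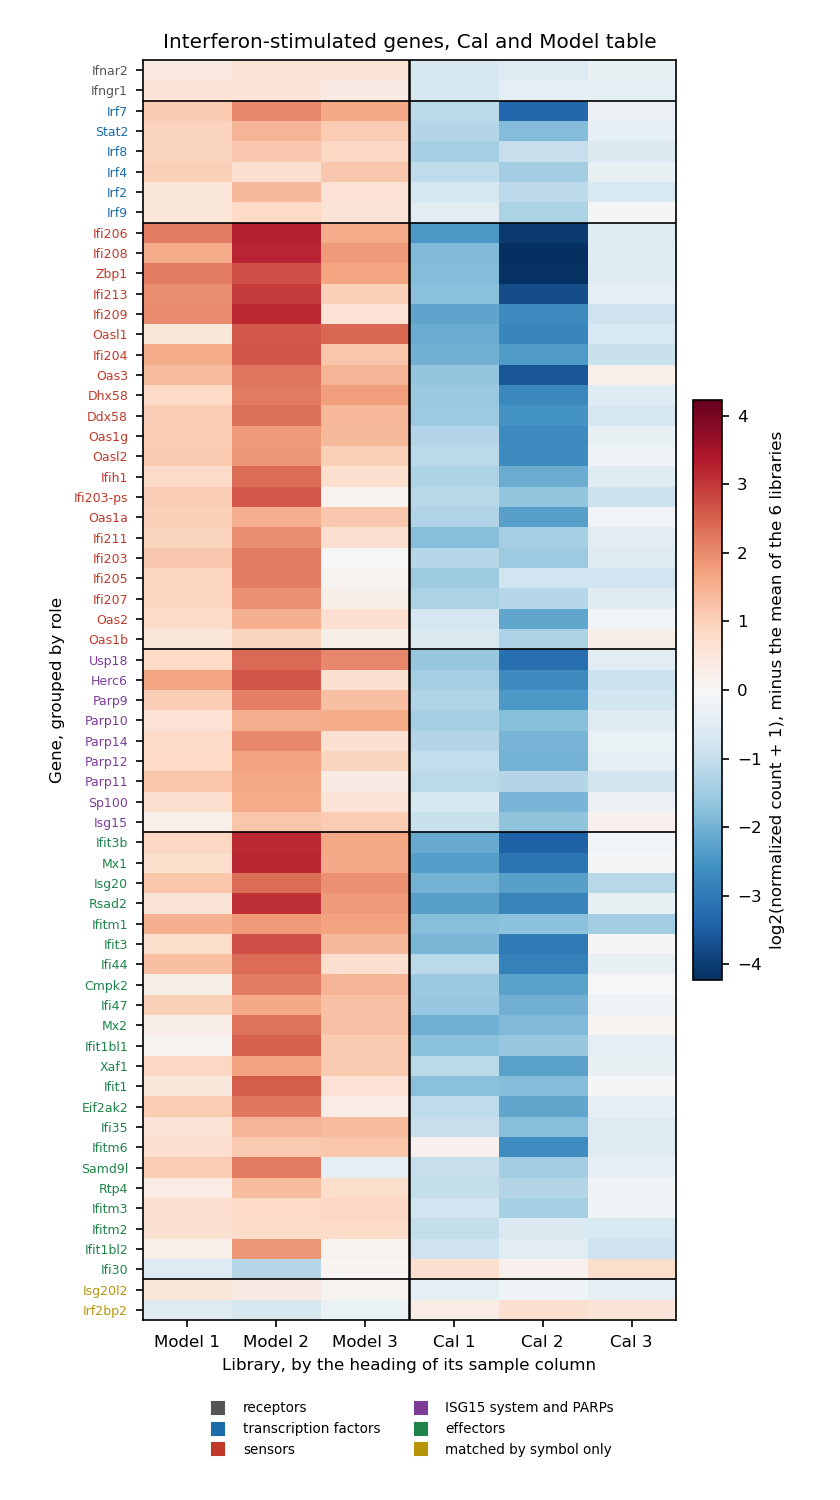
Heatmap of 62 of the 63 genes (rows, grouped by role and coloured by it on the axis) in the 6 libraries of the Cal and Model table (columns), as log2(normalized count + 1) minus the mean of the gene over the 6 libraries. The libraries headed Model are above this mean in most rows, with Model 2 the highest in 53 of the 63 genes, and Cal 2 is the lowest of the Cal libraries in 50.

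The receptor chains differed by about the limit of a call. Ifnar2, a chain of the type I interferon receptor, had normalized counts of 741, 824 and 837 in Model 1 to 3 and 349, 383 and 444 in Cal 1 to 3. The groups did not overlap and the log2 fold change was 1.03 (standard error 0.15, limma adjusted p = 0.000853). Ifngr1, the ligand-binding chain of the interferon gamma receptor, had 2736, 2677 and 2303 against 1141, 1366 and 1396, and its log2 fold change of 0.98 (standard error 0.14, limma adjusted p = 0.000957) stayed below the fold limit. Libraries of one group lay close together in both genes. Under quantile normalization and median-ratio scaling Ifnar2 was also below the fold limit, as it was without Cal 1, at 0.95.

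All 7 transcription factors in the table were called higher in the libraries headed Model, against 31.6% of all listed genes. The log2 fold changes of the 7 ran from 1.26 to 3.14. Irf7, which amplifies the type I interferon response, had the largest difference, with normalized counts of 7376, 13982 and 10495 in Model 1 to 3 and 1562, 343 and 2916 in Cal 1 to 3. The groups were far apart, while the Cal libraries themselves were spread widely. The log2 fold change of Irf7 was 3.14 (standard error 0.71, limma adjusted p = 0.00474), and it was 2.27 without Cal 2 and 3.81 without Cal 3. Stat2, a partner in the ISRE-binding complex, had 2720, 3815 and 2933 against 603, 391 and 1088 (log2 fold change 2.29, standard error 0.35, limma adjusted p = 0.00109). Irf9, the DNA-binding part of that complex, differed less, with 2044, 2605 and 2087 against 1038, 565 and 1367 (1.26, standard error 0.31, limma adjusted p = 0.00643). No library headed Cal reached a library headed Model in Stat2 or Irf9. With median-ratio scaling or quantile normalization the log2 fold change of Irf9 was below 1, and without Cal 2 it was 0.91.

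The other interferon regulatory factors covered a wide range of levels. Irf8, a factor of monocytes, macrophages and dendritic cells, had normalized counts of 1425, 1645 and 1364 in Model 1 to 3 and 279, 379 and 486 in Cal 1 to 3 (log2 fold change 1.98, standard error 0.21, limma adjusted p = 0.000335). Its spread was small in the Model group and larger in the Cal group (SD of the log2 values 0.14 and 0.40). Irf2, which competes with Irf1 for the same sites, had 691, 1274 and 740 against 291, 229 and 315 (1.65, standard error 0.26, limma adjusted p = 0.00122). Irf4, a factor of lymphocytes and some macrophages, was low throughout, at 46.4, 36.6 and 50.8 against 10.1, 7.51 and 17.9 (1.89, standard error 0.36, limma adjusted p = 0.00259). Per kilobase of the deposited gene length, the mean normalized count in the libraries headed Model ran from 9.10 for Irf4 to 2812 for Irf7, with Stat2 at 533, Irf9 at 417, Irf8 at 209 and Irf2 at 122.

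Sensors of nucleic acid had the largest differences. All 21 were called higher in the libraries headed Model, against 31.6% of all listed genes. The median log2 fold change of the sensors was 2.84, against 0.52 for all listed genes. The 5 genes with the largest differences of all 63 belong to this group. Of these 5, Ifi206, Ifi208, Ifi209 and Ifi213 are neither a gene symbol nor a synonym in the rat annotation. Which rat gene their reads came from is unknown. Ifi206 (ENSMUSG00000037849), of the Ifi200 family of DNA-binding proteins on mouse chromosome 1, had normalized counts of 1443, 2974 and 928 in Model 1 to 3 and 57.2, 17.8 and 212 in Cal 1 to 3 (log2 fold change 4.69, standard error 0.83, limma adjusted p = 0.00196). Its relative Ifi208 had 1419, 4433 and 1651 against 129, 24.4 and 334 (4.40, standard error 0.89, limma adjusted p = 0.00313). Both genes were higher in every Model library than in any Cal library, and in both Cal 2 was the lowest. Zbp1, a sensor of Z-form nucleic acid that can start necroptosis, had 2570, 3768 and 1825 against 161, 31.0 and 400 (4.35, standard error 0.82, limma adjusted p = 0.00243). Ifi213 had 1230, 2444 and 642 against 92.2, 22.5 and 247 (3.93, standard error 0.84, limma adjusted p = 0.00383), and Ifi209 had 1579, 3528 and 603 against 83.0, 61.9 and 217 (3.84, standard error 0.68, limma adjusted p = 0.00195). The size of these differences rests in part on single libraries. Without Cal 2 the log2 fold changes of Ifi206, Ifi208, Zbp1 and Ifi213 were 3.83, 3.39, 3.35 and 3.04, and without Cal 3 they were 5.58, 5.25, 5.18 and 4.73. That of Ifi209 was 3.22 without Model 2 and 4.49 without Model 3.

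The 10 genes matched by an Ifi200 symbol had a median log2 fold change of 3.05. Of these only Ifi204 is a synonym of a rat gene. Members that are also listed for the Cal and Con headings differed less than the 5 above, with 2.42 for Ifi211, 2.11 for Ifi205 and 2.04 for Ifi207. Ifi211 had normalized counts of 1586, 3198 and 1345 in Model 1 to 3 and 237, 312 and 604 in Cal 1 to 3. Ifi205 had 2922, 6989 and 1682 against 557, 878 and 875, and Ifi207 had 2635, 5355 and 1670 against 561, 607 and 997. In each of these 3 genes Model 2 was the highest library and Model 3 the lowest of its group. One further member, Ifi203-ps, is annotated as an unprocessed pseudogene, and its log2 fold change of 2.51 became 1.84 without Model 2. All 7 genes of the Oas family were called, with a median of 2.63, against 60.1% and 0.52 for all listed genes. Products of this family make the second messenger that activates RNase L or resemble those that do. Oasl1, which lacks that enzyme activity, had 1951, 8512 and 7472 against 328, 207 and 892 (log2 fold change 3.66, standard error 0.68, limma adjusted p = 0.00234). It was 4.34 without Model 1 and 4.25 without Cal 3. Oas1b, annotated as a polymorphic pseudogene, had the smallest difference of the family, with 256, 344 and 210 against 116, 70.4 and 209 (1.14, standard error 0.39, limma adjusted p = 0.0221). Cal 3 nearly met Model 3 in Oas1b, and the call was lost without Model 1 (adjusted p = 0.0544), Model 2 (0.0786), Cal 1 (0.0571) or Cal 2 (0.0602), and under median-ratio scaling, each with limma. The log2 fold change of Oas3 was 3.38, and it was 2.42 without Cal 2 and 4.33 without Cal 3. Without Cal 2, those of Oas1g, Oas2 and Oasl2 went from 2.84, 2.02 and 2.63 to 2.19, 1.44 and 1.97. The 3 RIG-I-like receptors, which sense viral RNA in the cytoplasm, were called at 3.22 for Dhx58, 3.18 for Ddx58 and 2.60 for Ifih1.

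**Figure D2:**
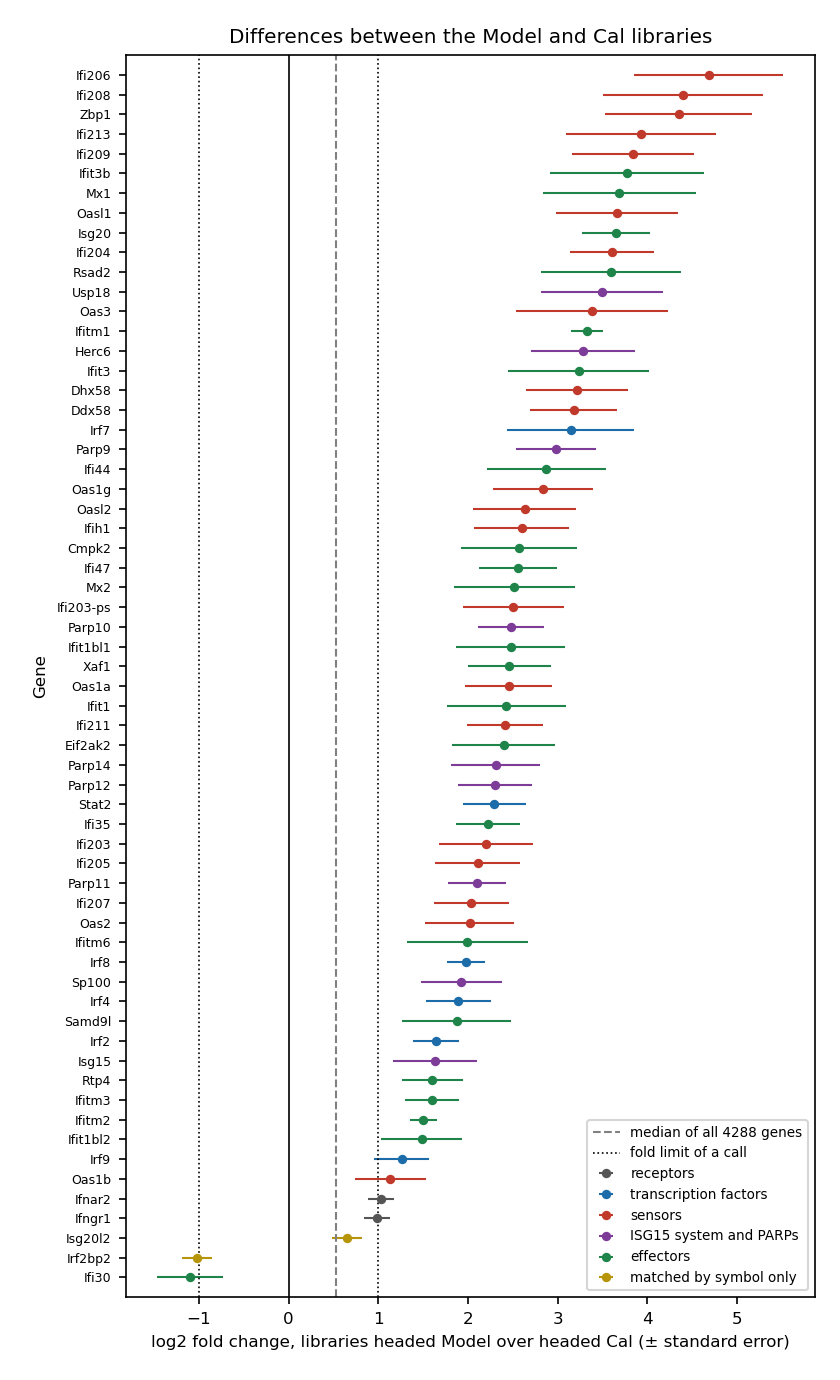
Log2 fold change of the libraries headed Model over those headed Cal for 62 of the 63 genes (points, coloured by role), with standard errors (bars), the fold limit of a call at 1 and -1 (dotted) and the median of all 4288 listed genes (dashed). The points run from -1.10 for Ifi30 to 4.69 for Ifi206, and all but those of Ifi30 and Irf2bp2 are above 0.

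The ISG15 system and the antiviral PARP genes were called higher in the libraries headed Model in 9 of 9 cases, against 31.6% of all listed genes. The median log2 fold change of the 9 was 2.31, against 0.52 for all listed genes. Isg15, a ubiquitin-like protein that is attached to other proteins, had normalized counts of 2484, 4832 and 4565 in Model 1 to 3 and 1133, 670 and 2431 in Cal 1 to 3. Cal 3 lay just under Model 1, and the log2 fold change of 1.63 (standard error 0.47, limma adjusted p = 0.0115) was the smallest of the group. Usp18, the protease that removes Isg15 and dampens receptor signalling, had the largest at 3.5, which was 2.77 without Cal 2 and 4.14 without Cal 3. Herc6, the ligase of the system in mice, followed at 3.29. The 5 Parp genes, which encode ADP-ribosyltransferases, lay between 2.10 for Parp11 and 2.98 for Parp9, and Sp100, a nuclear body protein, was at 1.93.

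Of the 22 effector genes, 21 were called higher in the libraries headed Model and Ifi30 was called higher in those headed Cal, with a median log2 fold change of 2.47. For all listed genes the shares called were 31.6% and 28.4%, and the median was 0.52. Rsad2, whose product viperin makes a chain terminator of viral RNA synthesis, had normalized counts of 8337, 48285 and 19756 in Model 1 to 3 and 1154, 832 and 4629 in Cal 1 to 3. Every Model library was above every Cal library, but the Model libraries themselves were widely spread. The log2 fold change of Rsad2 was 3.60 (standard error 0.78, limma adjusted p = 0.0041), and it was 4.23 without Model 1, 2.96 without Model 2 and 4.35 without Cal 3. Isg20, an exonuclease that degrades viral RNA, had 1625, 3729 and 2754 against 179, 145 and 319 (3.65, standard error 0.38, limma adjusted p = 0.000297). Ifit1, which binds viral RNA with a foreign cap, had 7333, 30974 and 7912 against 1545, 1481 and 5026 (2.43, standard error 0.66, limma adjusted p = 0.00946). Here Model 2 stood far above the other Model libraries, and without it the value was 1.75. Mx2, a GTPase related to Mx1 and annotated as a polymorphic pseudogene, had 877, 3535 and 1696 against 176, 199 and 791 (2.52, standard error 0.67, limma adjusted p = 0.0088). Cal 3 was close to Model 1 in this gene, and without Cal 3 the value was 3.21. Ifi47, an interferon-induced GTPase, had 2294, 3432 and 2702 against 377, 281 and 975 (2.56, standard error 0.43, limma adjusted p = 0.0016).

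The remaining effectors differed in how far single libraries set the result. Mx1, a GTPase that traps viral nucleoprotein, was at a log2 fold change of 3.69, Ifit3b at 3.77 and Ifit3 at 3.24. Without Cal 2 these were 3.06, 3.01 and 2.55, without Cal 3 they were 4.57, 4.66 and 4.07, and without Model 2 those of Mx1 and Ifit3b were 3.03 and 3.14. Cmpk2 moved from 2.57 to 3.20 without Cal 3, Ifi44 from 2.87 to 2.16 without Cal 2, and Ifit1bl1 from 2.48 to 1.85 without Model 2. Ifit1bl2, at 1.48, was below the fold limit without Model 2, at 0.92. Samd9l was the gene in which groups overlapped, with normalized counts of 2982, 6290 and 1052 in Model 1 to 3 and 713, 504 and 1112 in Cal 1 to 3 (1.87, standard error 0.61, limma adjusted p = 0.0178). Cal 3 was above Model 3 there, the value was 1.26 without Model 2 and 2.55 without Model 3, and the call was lost without Model 1 (limma adjusted p = 0.0553) or Cal 2 (0.0555). The Ifitm genes encode membrane proteins that hinder virus entry, and Ifitm1 and Ifitm2 were steady within groups. Ifitm1 had 551, 682 and 630 against 55.3, 57.3 and 70.0, which gave the smallest adjusted p of the 63 genes (3.33, standard error 0.18, limma adjusted p = 7.65e-05). Ifitm2 and Ifitm3 were at 1.5 and 1.60, and under quantile normalization both were below the fold limit. Ifitm6 had few reads, 35, 41 and 55 reads in Model 1 to 3 and 28, 3 and 18 in Cal 1 to 3. Its log2 fold change of 2.0 was 2.58 without Cal 1 and 1.18 without Cal 2, and the call was lost without Model 2 (limma adjusted p = 0.0575) or Model 3 (0.0689).

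Of the 63 genes, 2 were called higher in the libraries headed Cal. Ifi30, a lysosomal thiol reductase of antigen processing that is listed as a processed transcript, had normalized counts of 95.01, 64.8 and 97.4 in Cal 1 to 3 and 38.9, 24.4 and 61.3 in Model 1 to 3. The Cal over Model log2 fold change was 1.10 (standard error 0.36, limma adjusted p = 0.0191), and the call was lost without Model 2 (adjusted p = 0.0511), Cal 1 (0.0612) or Cal 3 (0.0611). With quantile normalization or a pseudocount of 10 Ifi30 was below the fold limit, at 0.93 and 0.94. Irf2bp2, a corepressor named for its binding to Irf2 and not known as interferon-stimulated, had 802, 1024 and 938 against 436, 399 and 526 (1.02, standard error 0.16, limma adjusted p = 0.00133). Irf2bp2 was below the fold limit without Model 1, Model 2 or Cal 2, at 0.999, 0.93 and 0.94, so neither call held without Model 2. In both genes the groups did not overlap. Isg20l2, a nuclease of ribosomal RNA processing, did not pass, at 206, 242 and 204 against 390, 344 and 295 (-0.65, standard error 0.17, limma adjusted p = 0.00806).

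Levels of these genes in the heart can be compared roughly per kilobase of the deposited gene length, which was given with mouse identifiers. In the libraries headed Model, Ifitm3 had the highest mean normalized count per kilobase, 17649, followed by Ifit3 at 10812, Rsad2 at 5873, Ifit1 at 5801 and Isg15 at 5238. In those headed Cal, Ifitm3 was at 6196, Isg15 at 1867, Ifit3 at 1424, Ifit1 at 1011 and Rsad2 at 509. Ifitm3 was thus the most abundant of these 5 in both groups, and Rsad2 stood above Isg15 in the libraries headed Model and below it in those headed Cal. The 5 were the highest under Model, and under Cal Ifitm2, at 1337, was also above Ifit1 and Rsad2.

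The second comparison set the libraries headed Cal against the sham libraries, headed Con. All 16 interferon-stimulated genes in this table were called, 15 as higher in the libraries headed Cal and 1 as lower. Of all 2458 listed genes, 29.0% were called, 18.0% as higher in the libraries headed Cal. A limma adjusted p under 0.05 was found for 2454 of them, so calls rest mainly on the fold limit here too. The median log2 fold change of Cal over Con was 2.08 for the 16 genes and 0.37 for all listed genes. No library of one group overlapped the other in any of the 16 genes, as in 97.4% of all listed genes. Normalized counts are on the scale of this table, whose size factors differ from those of the first.

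Irf1, the factor that starts many interferon gamma responses and whose promoter holds the GAS core shown above, had the largest difference. Its normalized counts were 6408, 4776 and 7748 in Cal 1 to 3 and 372, 635 and 402 in Con 1 to 3 (log2 fold change 3.76, standard error 0.23, limma adjusted p = 5.58e-06). The lowest Cal library was far above the highest Con library. Irf8 had 313, 425 and 542 against 171, 153 and 116 (1.52, standard error 0.22, limma adjusted p = 0.000747), and Irf5, a factor downstream of Toll-like receptors, had 252, 212 and 257 against 97.8, 105 and 81.0 (1.34, standard error 0.16, limma adjusted p = 0.000275). Libraries of a group lay closer together in Irf5 than in Irf8.

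Sensors and effectors had their higher values under Cal and spread more widely. Isg15 had normalized counts of 1267, 751 and 2710 in Cal 1 to 3 and 83.9, 376 and 102 in Con 1 to 3 (log2 fold change 3.20, standard error 0.61, limma adjusted p = 0.0022). Oasl1 had 367, 233 and 995 against 35.4, 103 and 31.4 (3.15, standard error 0.58, limma adjusted p = 0.00202), and Ifit1 had 1728, 1661 and 5604 against 148, 932 and 214 (3.02, standard error 0.69, limma adjusted p = 0.0046). Con 2 was the highest sham library and Cal 3 the highest Cal library in each of these 3 genes. Without Con 2 the values of Isg15 and Ifit1 were 3.87 and 3.82, and without Cal 3 that of Oasl1 was 2.56. Mx2 had 197, 223 and 882 against 30.7, 143 and 36.4 (2.61, standard error 0.69, limma adjusted p = 0.00772), and was at 1.92 without Cal 3 and 3.30 without Con 2. Ifit2, which binds RNA and is listed only in this table, had 1705, 1524 and 6816 against 328, 1230 and 407 (2.25, standard error 0.64, limma adjusted p = 0.00965), and was at 1.56 without Cal 3. In Ifit2, Con 2 came near Cal 2. Ifitm5, a member best known from bone, had 10, 18 and 15 reads in Cal 1 to 3 and 1, 2 and 0 in Con 1 to 3. Over the group sums the ratio was 14.9, with an exact 95% counting interval of 4.76 to 74.9 that leaves out the spread between animals.

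The other genes had smaller differences. Ifi47 had normalized counts of 422, 315 and 1087 in Cal 1 to 3 and 91.3, 219 and 89.1 in Con 1 to 3 (log2 fold change 2.10, standard error 0.49, limma adjusted p = 0.00479). Ifi205 had 623, 984 and 976 against 199, 291 and 142 (2.06, standard error 0.27, limma adjusted p = 0.000426). Both were higher in every Cal library, and Ifi205 was the steadier one. Oas1b had 130, 78.9 and 233 against 38.2, 59.9 and 25.3 (1.76, standard error 0.43, limma adjusted p = 0.00558). Ifi211 had 265, 349 and 673 against 89.5, 230 and 84.0 (1.72, standard error 0.44, limma adjusted p = 0.00689). In these genes Con 2 was again the highest sham library. Ifi207 had 627, 681 and 1111 against 216, 440 and 199 (1.54, standard error 0.32, limma adjusted p = 0.0032). Isg20 had 200, 162 and 356 against 63.4, 121 and 79.96 (1.40, standard error 0.33, limma adjusted p = 0.00491).

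The 11 genes listed in both tables can be set side by side. Both comparisons use the libraries headed Cal, so a high or low Cal level enters both and the directions are not independent of each other. With the values of the libraries headed Con divided by 1.12, the ratio of the tables' size factors for the shared libraries, the mean normalized count of Oasl1 was 50.7 ± 36.1 (SD, n = 3) under the heading Con, 476 ± 366 under Cal and 5979 ± 3526 under Model. That of Isg15 was 168 ± 146, 1411 ± 913 and 3960 ± 1286. That of Irf8 was 131 ± 24.7, 382 ± 103 and 1478 ± 148. In these genes each group lay above the one named before it, by factors that differed from gene to gene. A gene is in this set only if it passed the authors' threshold in both tables. Separation of Cal from Con and of Model from Cal was thus largely fixed by the choice. The other 52 genes of the Cal and Model table are not listed for the Cal and Con headings, so their level under Con is unknown. The ratio of the means under Model and Con ran from 7.34 in Oas1b to 118 in Oasl1. A level set across tables that were normalized separately is a description, and no test was made of Model against Con.

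**Figure D3:**
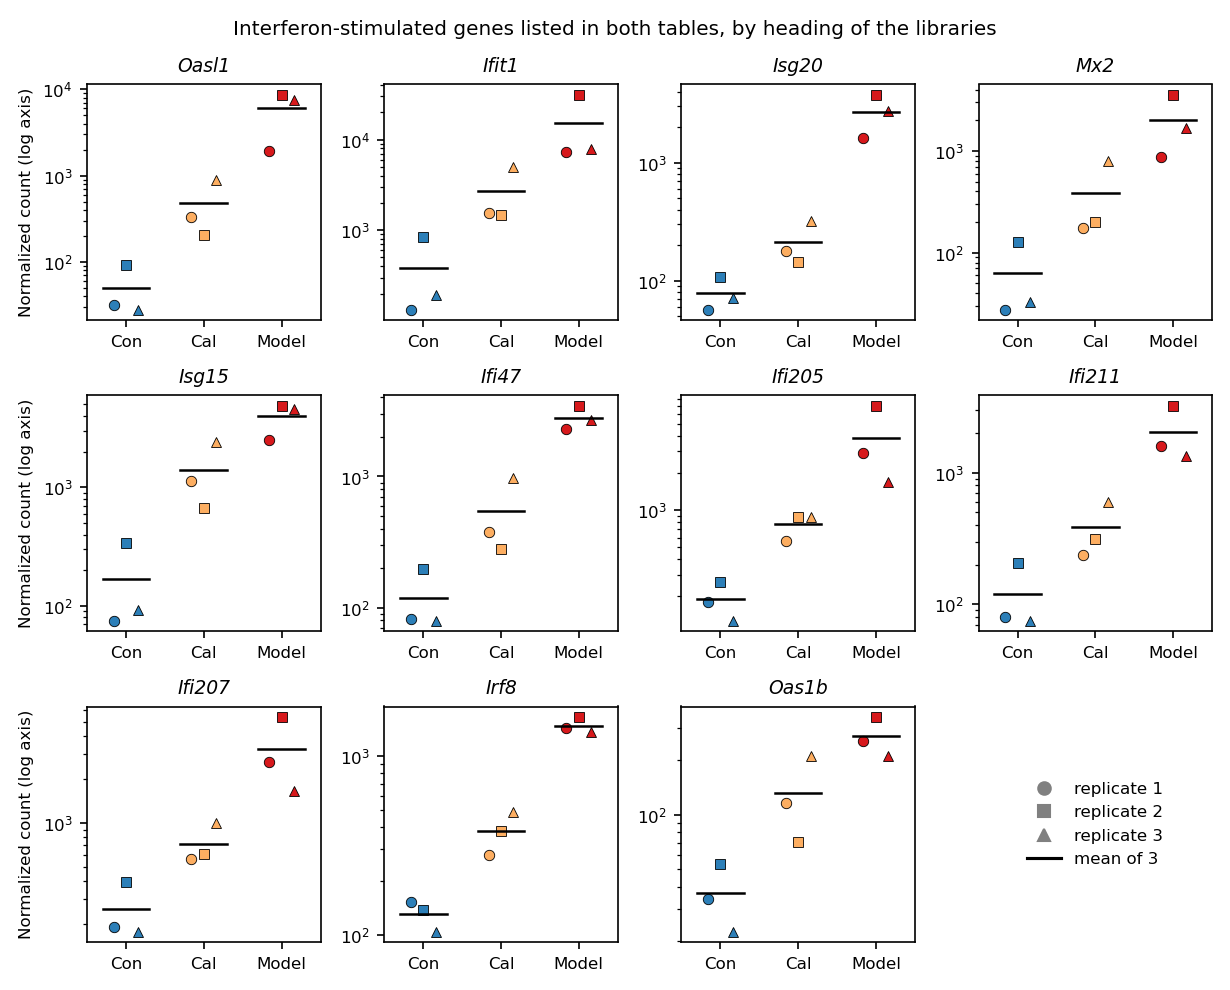
Normalized counts (log axis, each panel with its own range) of the 11 genes listed in both tables, by heading of the library, with one symbol per replicate number and the mean of 3 as a line. Values of the libraries headed Con were divided by 1.12 to bring them to the scale of the Cal and Model table. In Oas1b the highest Cal library, 209.2, lies just under the lowest Model library, 209.9.

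Libraries of one group differed more in the interferon-stimulated genes than in the listed genes as a whole. The median SD of log2(normalized count + 1) within the group was 0.85 for the libraries headed Cal and 0.61 for those headed Model over the 63 genes, against 0.18 and 0.33 over all listed genes. For the Cal and Con libraries it was 0.73 and 0.68 over the 16 genes, against 0.16 and 0.15. Listed genes had passed the authors' test, and a gene with a small difference passes only with a small spread. The low spread of all listed genes is therefore in part a result of that selection. The spread went in one direction for most genes. Cal 3 was the highest Cal library in 57 of the 63 genes (90.5%, against 39.9% of all listed genes), Cal 2 was the lowest in 50 (79.4%, against 41.3%), and Model 2 was the highest Model library in 53 (84.1%, against 40.5%). The full order of Cal 3 above Cal 1 above Cal 2 was found in 49 of the 63 genes (77.8%, against 23.6%). Con 2 was the highest sham library in 14 of the 16 genes of the other table (87.5%, against 39.6%). The genes thus moved together between animals given the same label, and since genes of one library are not independent, these counts carry no test.

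**Figure D4:**
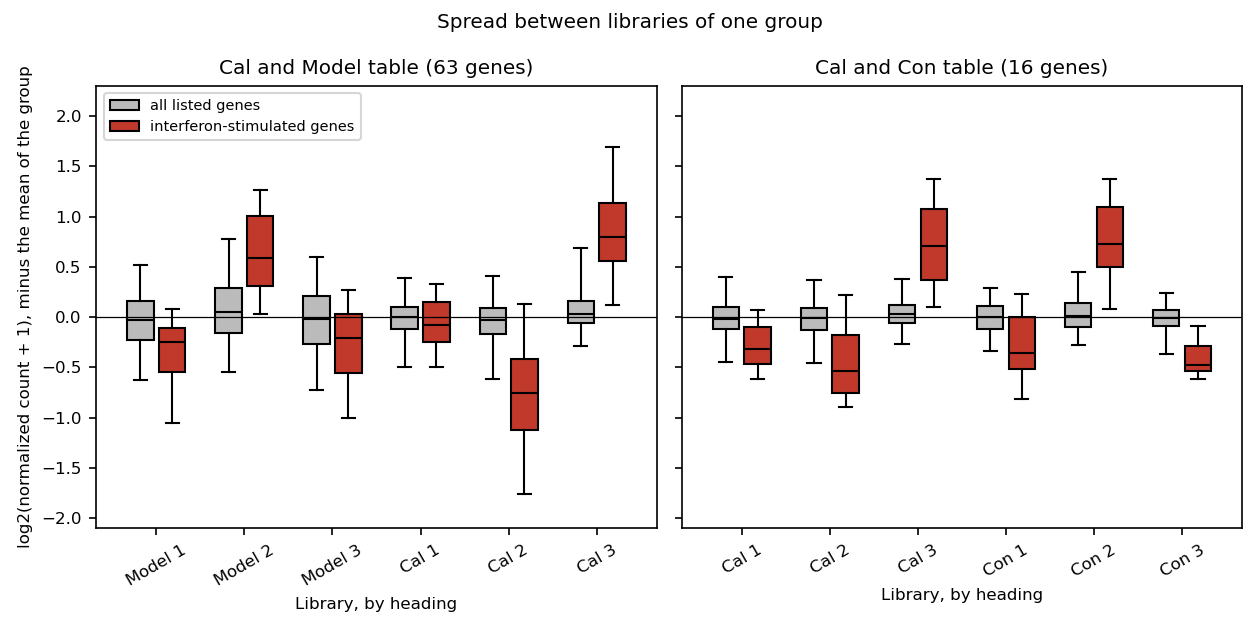
Spread between libraries of one group, as log2(normalized count + 1) minus the mean of the group, for all listed genes (grey) and for the interferon-stimulated genes (red), with the median (line), the quartiles (box) and the 5th and 95th percentiles (whiskers). The median of the interferon-stimulated genes is 0.79 in Cal 3, -0.76 in Cal 2 and 0.59 in Model 2 in the left panel, where that of all genes is within 0.05 of 0.

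The order within the Model group was not the same for all families. Model 3 was the lowest Model library in 9 of the 10 Ifi200 genes, while among the other 53 genes Model 1 was the lowest in 34 and Model 3 in 16. In the Ifit family Model 1 was the lowest in 4 of 5 genes. Ifitm1, Ifitm2, Ifnar2 and Ifngr1 had less spread in both groups than most of the 63 genes. Across the 63 genes, a larger difference between the groups went with a larger spread within them (Pearson r = 0.766 across genes, which share the 6 libraries and are not independent). Genes with a small difference and a large spread would not have passed the authors' threshold. Their absence alone favours such a relation, so it is a description of the listed genes only. Ifitm1 was an exception, with a log2 fold change of 3.33 and an SD of 0.18 within the Cal libraries and 0.16 within the Model libraries.

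**Figure D5:**
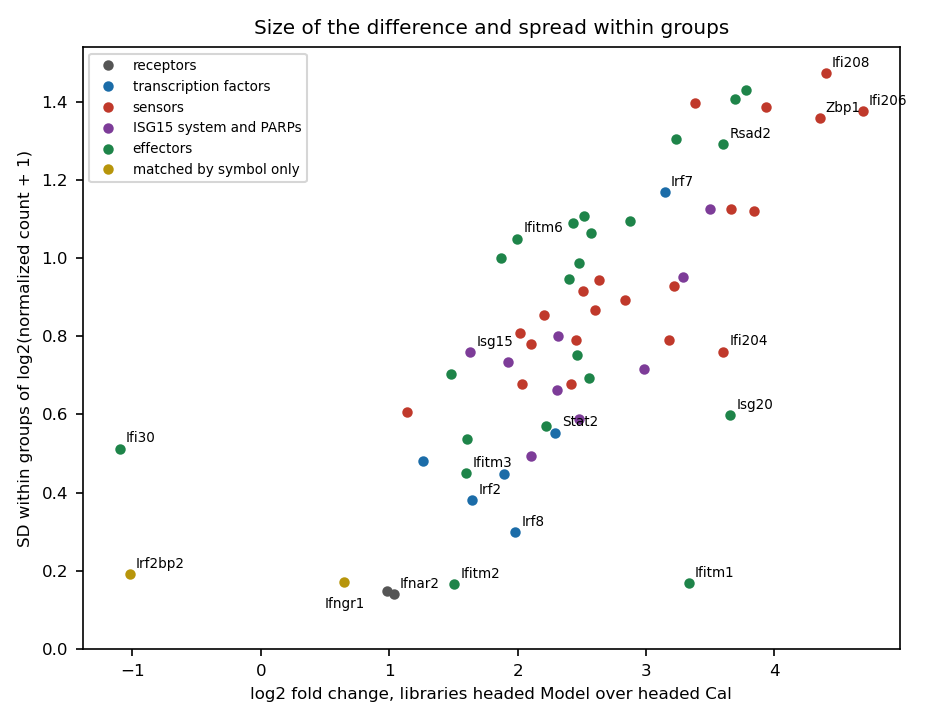
Log2 fold change of the libraries headed Model over those headed Cal (x axis) and SD within groups of log2(normalized count + 1), pooled over both groups (y axis), for 62 of the 63 genes, coloured by role. Genes with larger differences lie higher, and Ifitm1, at 3.33, lies near the bottom with Ifitm2, Ifnar2 and Ifngr1. Genes with a small difference and a large spread would not have been listed.

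Other genes of the pathway were read from lists of 105 genes outside the symbols above. The Cal and Model table listed 79 of them, with a median log2 fold change of 2.22 for Model over Cal. Of the 79, 69 were called higher in the libraries headed Model, 2 (Ifnb1 and Cish) in those headed Cal, and 8 did not pass. Of all 4288 listed genes 60.1% were called, 31.6% as higher in the libraries headed Model, and their median was 0.52. Largest among the 79 were Ly6c2, a surface protein of inflammatory monocytes, Ms4a4c, a membrane protein, and Cd274, the checkpoint ligand PD-L1. Ly6c2 had normalized counts of 146, 183 and 188 in Model 1 to 3 and 0, 3.75 and 15.4 in Cal 1 to 3, and Ms4a4c had 692, 1244 and 636 against 36.0, 2.82 and 65.8. Cd274 had 7801, 20151 and 9927 against 341, 206 and 932 (log2 fold change 4.84, standard error 0.57, limma adjusted p = 0.00045). All 3 were higher in every Model library. Without Cal 3 the value of Cd274 was 5.45. The fitted values of Ly6c2 and Ms4a4c, 5.33 and 5.28, were 4.29 without Cal 1 and 6.30 without Cal 3 in the first gene, and 4.04 without Cal 2 and 6.11 without Cal 3 in the second. Cish, an inhibitor of cytokine signalling through Stat5, had 960, 1752 and 1017 in Cal 1 to 3 and 473, 476 and 732 in Model 1 to 3 (1.12 for Cal over Model, standard error 0.28, limma adjusted p = 0.00675), and its call was lost without Cal 2, where the value was 0.85.

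For the Cal and Con headings 23 of the 105 were listed, with a median log2 fold change of 1.18 for Cal over Con. Of the 23, 13 were called higher in the libraries headed Cal, Tmem140 was called lower and 9 did not pass. Of all 2458 genes listed there 29.0% were called, 18.0% as higher in the libraries headed Cal, and their median was 0.37. Socs3, an inhibitor of cytokine receptors induced by Stat3, had normalized counts of 1833, 3501 and 2423 in Cal 1 to 3 and 76.4, 91.3 and 50.6 in Con 1 to 3 (5.12, standard error 0.27, limma adjusted p = 2.75e-06). Socs1, the main inhibitor of interferon signalling, had 118, 183 and 388 against 19.6, 27.5 and 19.2 (3.16, standard error 0.40, limma adjusted p = 0.000348). Both inhibitors were higher in every Cal library than in any sham library. Between the Cal and Model groups Socs1 was at 699, 1046 and 1333 in Model 1 to 3 and 105, 163 and 348 in Cal 1 to 3 (2.44 for Model over Cal, standard error 0.43, limma adjusted p = 0.00198). Tmem140, a membrane protein, had 53.6, 45.3 and 73.3 in Cal 1 to 3 and 104, 168 and 137 in Con 1 to 3 (-1.24), and on the scale of the first comparison 48.0, 40.4 and 65.8 against 282, 415 and 264 in Model 1 to 3. Its libraries headed Cal were the lowest in either table.

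Ifnb1, which encodes interferon beta, was the one interferon gene listed, and it had few reads. Cal 1 to 3 held 26, 1 and 61 reads, Model 1 to 3 held 0, 1 and 0, and Con 1 to 3 held 0 each. It was called in both tables with limma (adjusted p = 0.0212 against Model and 0.0107 against Con), but Cal 2 held no more reads than Model 2, and the first call was lost without Model 1 (limma adjusted p = 0.0638), Model 3 (0.0726), Cal 1 (0.0696) or Cal 3 (0.0686). With reads pooled over the 3 libraries of a group, the ratio of Cal to Model was 73.9 (exact 95% counting interval 12.9 to 2953). The pooled reads of Cal were at least 30.4-fold those of Con, with 3 reads over the group as the floor. Both values leave out the spread between animals and rest on Cal 1 and Cal 3, so they set no bound for the group. The libraries headed Model, in which 59 of the interferon-stimulated genes were called higher, thus held a single read of this gene. Among the Cal libraries it had the order of most interferon-stimulated genes, with Cal 3 highest and Cal 2 lowest.

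Signalling parts called in both tables were Ikbke, Myd88 and Tmem173. Ikbke, a kinase that activates Irf3 and Irf7, had normalized counts of 373, 406 and 265 in Model 1 to 3 and 43.4, 46.0 and 41.8 in Cal 1 to 3 (log2 fold change of Model over Cal 2.94), and in the second comparison 48.5, 51.6 and 46.7 in Cal 1 to 3 and 17.7, 18.7 and 15.2 in Con 1 to 3 (1.46 for Cal over Con). Myd88, the adaptor of most Toll-like receptors, differed by 1.63 for Model over Cal and 1.21 for Cal over Con, and Tmem173, the adaptor STING of the DNA-sensing pathway, by 1.46 and 1.17. The 3 Cal libraries of Ikbke lay within 1.10 times of each other. Among the induced genes, Helz2, Plscr1 and Casp4 were called in both tables, at 1.58, 2.06 and 2.29 for Model over Cal and 1.53, 1.84 and 2.93 for Cal over Con. Jak1, Mavs and Tlr7 were listed for the Cal and Model groups and did not pass.

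Markers of other cells moved with these groups, and their part in the results was not tested. Across all 4288 genes listed for Cal and Model, 31.6% were called higher in the libraries headed Model and 28.4% in those headed Cal. In the Cal and Model table, 6 of 7 neutrophil markers were listed and called higher in the libraries headed Model, where their summed normalized counts were 886 to 1096, against 77.5 to 247 in those headed Cal. The 3 of 16 T and NK cell markers and the 1 of 7 dendritic cell markers listed were also called higher under Model, with summed counts of 73.2 to 116 and 8.30 to 16.0 in the former and 31.6 to 52.4 and 9.22 to 21.6 in the latter. Macrophage and monocyte markers went both ways, with 9 of 12 listed, 4 called higher in the libraries headed Cal, 3 called lower and 2 not called, and sums of 3865 to 5443 under Model and 8344 to 9536 under Cal. Of these, Fcgr1 and Ly6c2 are also interferon-stimulated and stand on both lists. Endothelial markers (5 of 6 listed, 3 called higher under Cal and none lower) summed to 4243 to 5900 under Model and 9964 to 12271 under Cal. Of 2 fibroblast markers listed of 5, Col1a1 was called higher in the libraries headed Cal (1.38 for Cal over Model, limma adjusted p = 0.000514) and Dcn was not called (-0.68), and their sums, 11899 to 17644 under Model and 9495 to 12166 under Cal, rest mainly on Dcn. No B cell or cardiomyocyte marker was listed. Markers that are not listed were not analysed here and are not at 0.

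For the Cal and Con headings the cardiomyocyte markers Myh6, Actn2 and Ryr2 were listed of 12, with sums of 388869 to 392591 under Cal and 290268 to 364412 under Con and no call. Of the neutrophil markers, S100a8 and S100a9 were listed and called higher in the libraries headed Cal, at sums of 48.5 to 183 against 13.0 to 28.5. The macrophage and monocyte markers listed were 3 of 12 and went both ways. Cd14 was called higher in the libraries headed Cal (log2 fold change 3.44, limma adjusted p = 3.95e-06), Ccr2 was called lower (-2.11, limma adjusted p = 0.00232) and Mrc1 was not called (-0.49), and their sums, 2025 to 2765 under Cal and 1144 to 1273 under Con, rest mainly on Cd14. Endothelial markers (4 of 6, with Kdr called lower under Cal) summed to 11448 to 13112 and 18507 to 20788, fibroblast markers (4 of 5, with Pdgfra called lower) to 9550 to 12371 and 14389 to 16008, and Clec9a, the one dendritic cell marker of 7 listed, was called lower at 16.8 to 20.9 and 44.5 to 88.4. T, NK and B cell markers were not listed there.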

How the data were processed

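The authors deposited, for each library, a signal per gene that is the read count over a size factor, with 1 factor for every library and table. Dividing these steps out gave whole reads (within 0.05 of a read) in 100% of the values. Size factors were 0.820 to 1.17 for Cal and Model and 0.950 to 1.07 for Cal and Con. The authors deposited an adjusted p-value per gene and listed only genes under 0.05. Their group means served only to check headings, their gene length gave values per kilobase, and their fold changes and p-values were not used as results. The paper's text names rat reference sequences, the submitters' processing notes name Bowtie 0.12.2 and the mouse builds mm8 and mm9, and the role of each is not given in the sources used here. All sample columns belong to samples of the series.

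Libraries were grouped by their sample headings. The comparison planned as Model against Control was made between Cal and Con, since that table has no sample columns headed Model, and the plan had assumed normalized values or counts. Log2(normalized count + 1) was tested with limma 3.58.1 in R 4.3.3 (trended prior variance) within each table and adjusted by the Benjamini-Hochberg method over all its listed genes. Fold changes on this scale understate the change of low genes. P-values measure the spread between the 3 animals per group. They were computed on genes already selected by a test on the same libraries, so they are smaller than without that selection. A single value compared between 3 and 3 libraries cannot reach a two-sided exact p under 0.1, so no such test was made. Counting intervals and floors (3 reads) cover counting error only.

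The members and all gene lists were chosen with earlier results of these data known. Genes named with values were those in both tables, the 5 largest and 5 smallest fold changes per table among called genes without overlap, Stat, Irf, receptor and interferon genes, and, of the other pathway genes, those called in both tables or among the 3 largest each way. Other names were chosen after their values were seen. Some genes covered by this rule are not reported here. Results were recomputed with other pseudocounts (0.1 and 10), scalings (quantile and median-ratio), a minimum mean of 10, a stricter threshold (0.01), without the fold limit, with a replicate block, without each library in turn, and from the recovered reads with DESeq2 1.42.0 and edgeR 4.0.16. The scripts were tested on simulated data. Protein sequences were not used here.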

Additional observations from a re-analysis of the deposited data

How the results depend on the processing

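Of the 63 genes in the Cal and Model table, 61 were higher in the libraries headed Model under every alternative run, and 15 of the 16 in the Cal and Con table were higher in those headed Cal (14 of 15 with a mean of at least 10). The number called ranged from 55 (adjusted p under 0.01) to 63 (no fold limit) and from 15 to 16. edgeR and DESeq2 on the recovered reads each called 61 and 16. Leaving out one library gave 56 to 61 and 16 called genes, and medians of 2.04 to 2.83 (Model over Cal) and 1.57 to 2.42 (Cal over Con). Rescaling moved the median of all genes from 0.52 to 0.10 (quantile) or 0.23 (median-ratio) for Model over Cal, and that of the interferon-stimulated genes stood 1.93 above it with the authors' size factors, 1.97 with quantile normalization and 1.93 with median-ratio scaling. In the Cal and Con table the median of all genes moved from 0.37 to -0.04 and 0.09, and the genes called higher and lower in Cal went from 443 and 269 to 348 and 387 and to 342 and 447. Without the fold limit, 4272 and 2454 of all genes and 23 other pathway genes of the Cal and Con table were called, because nearly every listed gene had an adjusted p under 0.05. The replicate numbers belong to different animals. The correlations of the deviations of same-numbered libraries were 0.11, -0.119 and -0.0814 in the first table and -0.0235, -0.116 and -0.14 in the second. These values show no pairing by number, but 3 libraries per group cannot exclude it. With the replicate number as a block, 61 and 16 genes were called. Without knowledge of unlisted genes, neither members below the authors' threshold nor total depth could be assessed.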
